A study of Mus musculus with 16 samples.

Results

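Nicotinic acetylcholine receptors are the ion channels through which acetylcholine acts quickly on neurons, and 8 of their subunit genes are described here: Chrna3, Chrna4, Chrna5, Chrna6, Chrna7, Chrnb2, Chrnb3 and Chrnb4. They were chosen by name from the 25006 genes listed in the deposited counts, and all 8 were found. The data are RNA-seq counts of messenger RNA pulled down with RiboTag, a tagged ribosomal protein, from the substantia nigra of mice at postnatal day 45. Of the 16 mice, 8 were wild type (DAT-Cre+/-) and 8 were MCU-KO (DAT-Cre+/- MCU fl/fl), with 1 library for each mouse. MCU is the pore of the mitochondrial Ca2+ uniporter, and the study asked what its loss does to dopaminergic neurons of the substantia nigra pars compacta. Both genotypes carried 1 DAT-Cre allele, which drives Cre recombinase from the dopamine transporter gene Slc6a3, and both received an AAV9 vector with a Cre-dependent Rpl22l1-Myc-DDK tag and tdTomato 30 days before the tissue was taken. According to the study's methods the wild-type mice came from crossing DAT-Cre with C57/BL6 mice and carried no floxed allele, so that the deletion and any other difference between the breedings cannot be told apart.

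A nicotinic receptor is a ring of 5 subunits around a cation pore. Most of the alpha subunits carry the main face of the acetylcholine site, a pair of adjacent cysteines in one loop being their hallmark, and a beta subunit carries the opposite face. The alpha5 and beta3 subunits are accessory: they join a receptor without forming an ordinary binding site. In midbrain dopaminergic neurons alpha4-beta2 receptors are found along with alpha6-beta2 receptors that take in beta3, and the alpha6 and beta3 genes are known as marks of catecholaminergic neurons. Alpha7 forms receptors by itself, and the alpha3-beta4 combination is typical of autonomic ganglia and the medial habenula.

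The sequence that sets alpha from beta subunits was read from the reference genome (GRCm38, GENCODE M21 transcripts). The lines below give 42 bases of the coding strand at the cysteine loop for the 6 subunits on which the results turn, with the codons of the adjacent cysteine pair in capitals. The beta stretches are the aligned bases, which hold no such pair.
Chrna6: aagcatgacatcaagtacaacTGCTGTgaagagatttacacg
Chrna4: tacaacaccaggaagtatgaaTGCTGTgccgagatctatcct
Chrna3: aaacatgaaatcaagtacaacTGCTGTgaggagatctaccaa
Chrna5: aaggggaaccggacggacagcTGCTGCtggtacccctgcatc
Chrnb3: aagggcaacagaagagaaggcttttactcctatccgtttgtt
Chrnb2: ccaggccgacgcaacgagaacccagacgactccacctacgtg
These stretches lie at chr8:27407164-27407205 on the minus strand for Chrna6, chr2:181029263-181029304 on the minus strand for Chrna4, chr9:55015839-55015880 on the minus strand for Chrna3, chr9:55004596-55004637 on the plus strand for Chrna5, chr8:27393882-27393923 on the plus strand for Chrnb3 and chr3:89761341-89761382 on the minus strand for Chrnb2. All of them are coding exon. A tyrosine codon stood 2 codons before the pair in Chrna3, Chrna4, Chrna6 and Chrna7 and not in Chrna5, whose product lacks the ordinary binding face. Over the whole coding sequence the closest relatives were not an alpha with an alpha: Chrna5 and Chrnb3, the accessory subunits, shared 68.1% of aligned residues, Chrnb2 and Chrnb4 shared 63.9%, and Chrna3 and Chrna6 shared 62.7%.

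The genes lie in a few small clusters. Chrnb3 (chromosome 8, 27368711 to 27399730, plus strand) and Chrna6 (chromosome 8, 27403212 to 27413944, minus strand) are neighbours with 3481 bases between them. Chrna5 (chromosome 9, 54980880 to 55007779, plus strand), Chrna3 (chromosome 9, 55010111 to 55026562, minus strand) and Chrnb4 (chromosome 9, 55028154 to 55048779, minus strand) follow each other at distances of 2331 and 1591 bases. Chrna4 (chromosome 2, 181018380 to 181043546), Chrnb2 (chromosome 3, 89746195 to 89764632) and Chrna7 (chromosome 7, 63098692 to 63212569) stand alone, all on the minus strand. Of the exon bases of Chrnb2, 16.3% overlap exons of Adar on the other strand. Whether counting used the strand is not given in the sources used here, so reads of Chrnb2 and Adar in that overlap may not have been told apart. None of the other 7 subunit genes overlapped an exon of another gene.

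The libraries held 18999107 to 22016362 counts in wild-type mice and 14129527 to 20582204 in MCU-KO mice, where MCU-KO mouse 8 was the lowest, and 3 counts amounted to between 0.136 and 0.212 CPM. Th and Slc6a3, the genes of tyrosine hydroxylase and the dopamine transporter, averaged 114253 ± 16933 and 62800 ± 10384 normalized counts in wild type (SD, n = 8), and all 13 dopaminergic markers were counted in both genotypes without a called difference. Mcu itself ranged from 120 to 828 normalized counts in wild type and from 5.82 to 410 in MCU-KO, so that single libraries overlapped between genotypes, and its difference did not pass the test (log2 fold change -1.19, SE 0.59, adjusted p = 1.00, edgeR quasi-likelihood test). The study verified the deletion in its own assays, by quantitative PCR of Mcu in RiboTag messenger RNA and by a weaker mitochondrial calcium response to receptor stimulation. Markers of other cells were present at lower levels. The 6 oligodendrocyte markers summed to between 54434 and 105394 normalized counts in wild type and 64367 to 124240 in MCU-KO, the 6 astrocyte markers to 6277 to 12705 and 8759 to 17121, and the 6 microglial markers to 479 to 1874 and 557 to 2643. In each of these 3 lists 5 of 6 genes were fitted higher in MCU-KO and none was called. Of the 3 endothelial markers tested, 0 were fitted higher and 3 lower. Among the 13 dopaminergic markers 4 were fitted higher and 9 lower, and none of either list was called. The part of these other cells in the results that follow was not tested. The 4 GABAergic markers, Gad1, Gad2, Slc32a1 and Pvalb, summed to 2852 to 6221 in wild type and 2642 to 6401 in MCU-KO. Their wild-type means in normalized counts per kb of exon were 139 for Gad1, 284 for Gad2, 85.1 for Slc32a1 and 935 for Pvalb. Beside them stood 162 for Chrnb2, 219 for Chrna3, 225 for Chrna5 and 813 for Chrnb3. The part of the GABAergic cells in the subunit levels was not tested. The 4 cholinergic neuron markers summed to at most 259 in wild type and 341 in MCU-KO, with Slc18a3 and Isl1 at 0 in every mouse. In such pull-downs fewer cells of a type and less RNA per cell cannot be told apart.

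The pull-downs of wild-type mice were dominated by 3 subunit transcripts, those of Chrna6, Chrna4 and Chrnb3. Chrna6, the alpha subunit of catecholaminergic neurons, had normalized counts of 12191 in the lowest wild-type mouse, 15435 at the median and 19833 in the highest. Chrna4, the alpha subunit of the most widespread brain receptor, ranged from 11977 over a median of 13907 to 15860. The accessory subunit Chrnb3 ranged from 3704 over 4719 to 6921. The lowest wild-type value among these 3 genes lay above the highest of any other subunit. These values are scaled for library size by a size factor for each library, and they do not correct for the length of a gene.

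Chrna3, Chrna5 and Chrnb2 formed a middle group. Chrnb2, the beta subunit shared by alpha4 and alpha6 receptors, had normalized counts of 655 in the lowest wild-type mouse, 1452 at the median and 1981 in the highest. Chrna3 ranged from 653 over 1180 to 1836 and the accessory Chrna5 from 332 over 694 to 1053. All 3 were counted in all 16 mice, and the range of each overlapped the ranges of the other two.

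Chrna7 and Chrnb4 were sparse. Chrna7, the subunit of the homomeric alpha7 receptor, had a wild-type range from 0 over 73.4 to 154 normalized counts and was counted in 7 of 8 mice of each genotype. Chrnb4, the partner of alpha3 in ganglia, was counted in 3 of 8 wild-type mice, with 65, 27 and 32 counts, and in 1 of 8 MCU-KO mice, with 33 counts. Both genes were thus counted in some mice and not detected in others of the same genotype, which does not show that the transcript was absent there, and Chrnb4 did not pass the filter on low counts.

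**Figure D1:**
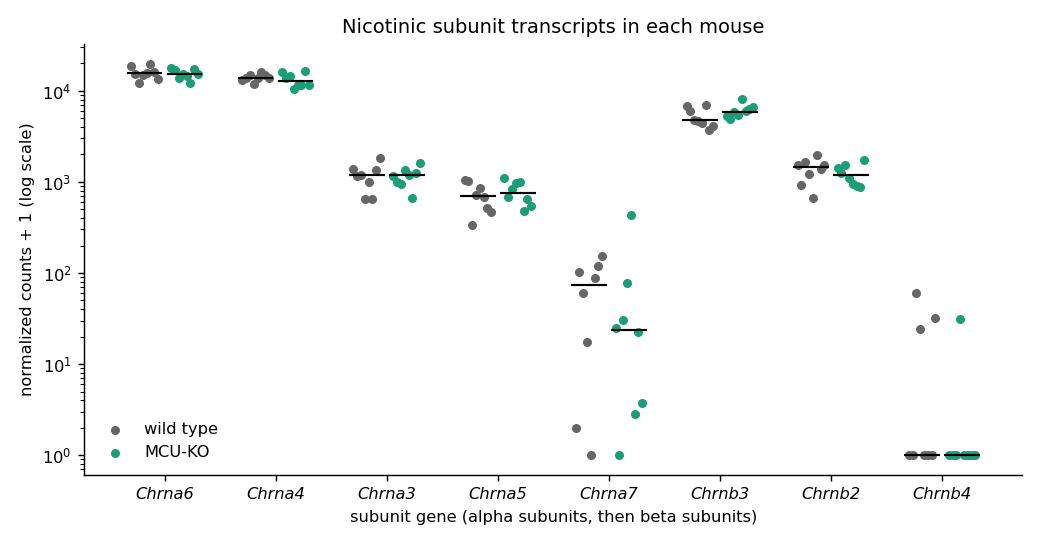
Normalized counts plus 1 (vertical axis, log scale) of the 8 subunit genes (horizontal axis) in each of 8 wild-type mice (gray) and 8 MCU-KO mice (green), with a bar at the median of each genotype. Chrna6 and Chrna4 lie at 10333 or above in all 16 mice, Chrnb3 lies between 3704 and 8106, and points at the bottom are mice with 0 counts.

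To compare genes with each other, normalized counts were divided by the length of the gene's exons in kb. On this scale Chrna6 stood at 5436 ± 865 per kb in wild type (SD, n = 8), Chrna4 at 2786 ± 234, Chrnb3 at 813 ± 193, Chrna5 at 225 ± 83.9, Chrna3 at 219 ± 75.1, Chrnb2 at 162 ± 50.3, Chrna7 at 14.9 ± 12.8 and Chrnb4 at 3.81 ± 5.90. The wild-type level of Chrna6 per kb was above that of 98.3% of the 12390 genes tested, Chrna4 above 96.2% and Chrnb3 above 87.7%, whereas Chrnb2 was above 59.8% and Chrna7 above 10.2%. The exon length of Chrnb2 includes the 16.3% of bases that overlap Adar, and its level was not corrected for this. The order of the 8 means was the same in MCU-KO mice.

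Neighbours in this order were compared within mice by an exact sign-flip permutation test (two-sided, adjusted over 14 comparisons in both genotypes, and 0.00781 is the smallest unadjusted p that 8 mice can give). The neighbours were picked from the means of the same mice, and the length of each gene was taken as fixed. These p-values therefore describe only how steadily a step held from mouse to mouse. Chrna6 exceeded Chrna4 by 0.95 ± 0.24 log2 units per kb in wild type and by 1.02 ± 0.21 in MCU-KO, in 8 of 8 mice of each genotype (exact p = 0.00781, adjusted p = 0.0137). Chrna4 exceeded Chrnb3 by 1.81 ± 0.34 in wild type and 1.47 ± 0.38 in MCU-KO, and Chrnb3 exceeded Chrna5 by 1.91 ± 0.49 and 1.97 ± 0.50, again in 8 of 8 mice and with the same p-values. Chrnb2 exceeded Chrna7 in 8 of 8 mice of each genotype. Chrna5 and Chrna3 were not separated in either genotype (difference 0.02 ± 0.87 log2 units in wild type, exact p = 0.945, and 0.18 ± 0.48 in MCU-KO, exact p = 0.32). Chrna3 and Chrnb2 were separated in MCU-KO (0.58 ± 0.43, 7 of 8 mice, exact adjusted p = 0.0219) and did not pass in wild type (0.43 ± 0.72, 6 of 8 mice, exact p = 0.125), a difference between genotypes that was not itself tested. Chrna7 exceeded Chrnb4 in 7 of 8 MCU-KO mice (exact adjusted p = 0.0219) and in 5 of 8 wild-type mice (exact p = 0.0938). This comparison lies near the floor: Chrnb4 was at 0 in 7 MCU-KO mice, and Chrna7 had only 2 counts in MCU-KO mice 6 and 8. In all, 10 of 14 neighbours passed, Chrna7 over Chrnb4 in MCU-KO among them. The first 3 places did not depend on the length used, whereas Chrna5 fell behind Chrna3 and Chrnb2 when the coding length took the place of the exon length.

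**Figure D2:**
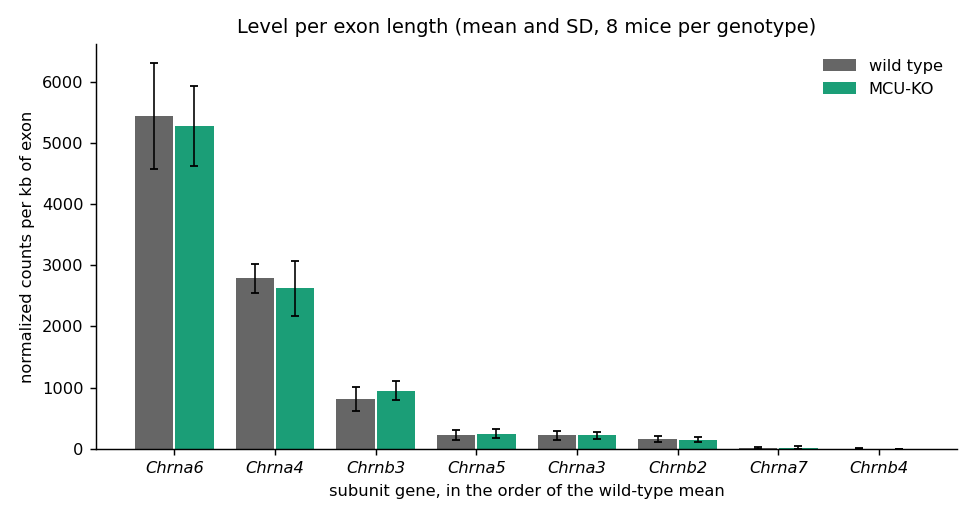
Mean level of each subunit gene in normalized counts per kb of exon (vertical axis, linear from 0), with SD over 8 wild-type mice (gray bars) and 8 MCU-KO mice (green bars). Chrna6 (5436 per kb in wild type), Chrna4 (2786) and Chrnb3 (813) stand above the remaining 5 genes, which lie at or below 249 per kb.

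As a share of the summed level per kb of all 8 genes, Chrna6 made up 56.1% ± 3.36 in wild type and 55.6% ± 2.68 in MCU-KO (SD, n = 8), and Chrna4 made up 29.1% ± 3.30 and 27.6% ± 3.07. Chrnb3 made up 8.36% ± 1.32 and 10.1% ± 2.07. Chrnb2, with which both alpha4 and alpha6 are known to assemble, made up 1.67% ± 0.493 and 1.54% ± 0.409, without a correction for its overlap with Adar. Among the 3 beta genes alone Chrnb3 held 82.9% ± 5.09 in wild type and 86.4% ± 3.69 in MCU-KO. The shares depended on the length chosen. With the coding length Chrnb3 made up 15.6% ± 2.36 in wild type and 18.6% ± 3.42 in MCU-KO, Chrnb2 made up 2.63% ± 0.752 and 2.39% ± 0.625, and Chrna6 fell to 44.0% ± 2.87 in MCU-KO. These are shares of transcript counts per length and not of receptor subunits.

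The comparison of genotypes asked whether loss of MCU went with altered subunit transcripts. Of the 7 subunit genes that passed the filter, 0 were called at an adjusted p under 0.05 by edgeR, beside 0.178% of all 12390 genes tested. None had an unadjusted p under 0.05, a level that 4.41% of all genes tested reached. DESeq2 and limma-voom also called 0 of the subunit genes, and DESeq2 called 0.557% of the genes it tested. In no subunit gene did the libraries of the genotypes fall apart without overlap, which happened in 0.258% of the genes tested. Of the 7, 3 were fitted higher and 4 lower in MCU-KO, and their median log2 fold change was -0.01, beside 0.003 over all genes tested. A p that misses the threshold does not show that the levels were equal, and the intervals give the sizes of change that remain compatible with these mice.

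Those intervals were narrowest for the abundant alpha subunits. Chrna6 ranged in MCU-KO mice from 12221 over a median of 15269 to 17828 normalized counts, so that all 8 lay within the wild-type range. Its log2 fold change was -0.04 (SE 0.10, 95% confidence interval -0.25 to 0.16, unadjusted p = 0.675, adjusted p = 1.00, edgeR), which amounts to between 0.842 and 1.12 of the wild-type level. Chrna4 ranged from 10333 over 12657 to 16243, with 4 MCU-KO mice below the lowest and 2 above the highest wild-type mouse. Its log2 fold change was -0.09 (SE 0.10, interval -0.29 to 0.12, unadjusted p = 0.387, adjusted p = 1.00, edgeR). The SD of Chrna4 was 1173 normalized counts in wild type and 2255 in MCU-KO, a difference in spread that was not tested.

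Chrnb3 had the lowest unadjusted p of the 7. It ranged in MCU-KO from 4934 over a median of 5866 to 8106 normalized counts. All 8 MCU-KO mice lay above the wild-type median of 4719, but only 1 lay above the highest wild-type mouse, so that the genotypes overlapped widely. The log2 fold change was 0.22 (SE 0.13, interval -0.06 to 0.50, unadjusted p = 0.111, adjusted p = 1.00, edgeR), and the interval reached from 0.962 to 1.42 of the wild-type level. Chrnb2, the other beta subunit of the midbrain receptors, ranged from 878 over 1174 to 1754 in MCU-KO, within the wild-type range in all 8 mice, with a log2 fold change of -0.15 (SE 0.21, interval -0.59 to 0.29, adjusted p = 1.00, edgeR).

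Chrna3 ranged in MCU-KO from 671 over 1173 to 1608 normalized counts and Chrna5 from 474 over 751 to 1095. In both genes 4 of the 8 MCU-KO mice lay above the wild-type median. Their log2 fold changes were -0.01 (SE 0.22, interval -0.46 to 0.45) for Chrna3 and 0.15 (SE 0.26, interval -0.39 to 0.68) for Chrna5, with adjusted p = 1.00 for both (edgeR). For 6 of the 7 genes the 95% interval lay within a 2-fold change in either direction, as it did for 51.8% of all genes tested.

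The exception was Chrna7. Its MCU-KO values ran from 0 over a median of 22.7 to 433 normalized counts, the highest coming from MCU-KO mouse 5, while the remaining 7 lay at 76.6 or below. The log2 fold change of 0.13 (SE 1.25, interval -2.46 to 2.71, adjusted p = 1.00, edgeR) rested on that mouse: it was -1.58 without MCU-KO mouse 5 and still not called. These data therefore leave the direction for Chrna7 undetermined. Chrnb4, with counts in 4 of 16 mice, did not pass the filter on low counts, and no fold change is given for it.

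**Figure D3:**
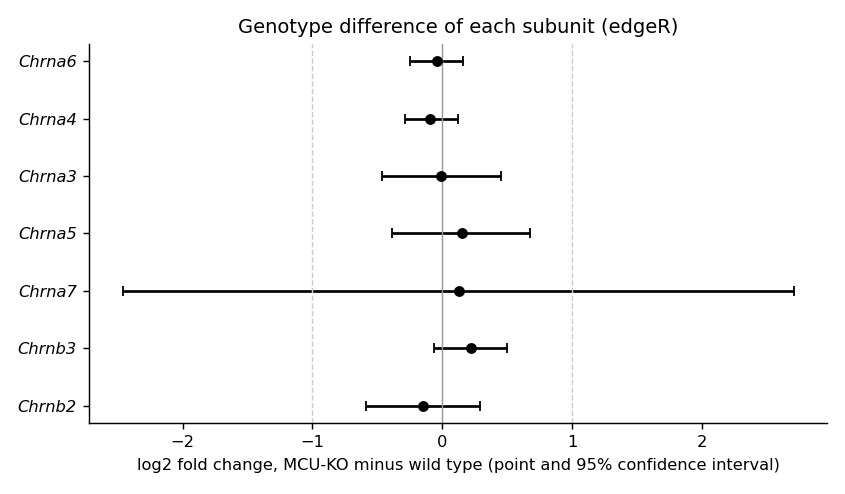
Log2 fold change of each subunit gene that was tested, MCU-KO minus wild type (horizontal axis), as a point with its 95% confidence interval from edgeR over 8 mice per genotype. All 7 intervals include 0, and 6 of them lie between the dashed lines that mark a 2-fold change in either direction, whereas that of Chrna7 reaches from -2.46 to 2.71.

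The width of these intervals followed the spread between mice. The biological coefficient of variation estimated by edgeR was 15.5% for Chrna4 and 15.9% for Chrna6, smaller than in all but 2.62% and 3.12% of the genes tested. It was 20.1% for Chrnb3, 30.7% for Chrnb2, 31.7% for Chrna3, 37.2% for Chrna5 and 160% for Chrna7. Of the genes tested, 10.1% varied less than Chrnb3, 28% less than Chrnb2 and 91.6% less than Chrna7.

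Because a ratio of subunit transcripts within 1 library does not depend on its size, 5 ratios were compared between genotypes by an exact permutation test (two-sided, n = 8 per genotype, adjusted over the 5). The log2 ratio of Chrnb3 to Chrna6, which lie side by side on chromosome 8, was -1.63 ± 0.26 in wild type and -1.35 ± 0.34 in MCU-KO. Of the MCU-KO mice, 6 of 8 lay above the wild-type median and 4 above the highest wild-type mouse, but the difference of 0.28 did not pass (exact p = 0.0841, adjusted p = 0.42). Chrnb3 to Chrnb2 stood at 1.97 ± 0.53 and 2.33 ± 0.49, higher than the wild-type median in 8 of 8 MCU-KO mice (difference 0.36, exact p = 0.177, adjusted p = 0.441). Chrna5 to Chrna4 differed by 0.28 (exact p = 0.329, adjusted p = 0.549), Chrna6 to Chrna4 by 0.06 (exact p = 0.595, adjusted p = 0.744) and Chrnb2 to Chrna4 by -0.02 (exact p = 0.932, adjusted p = 0.932). Chrna6 and Chrna4 thus stood in nearly the same proportion of counts in both genotypes, at 0.16 ± 0.24 and 0.23 ± 0.21 log2 units.

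**Figure D4:**
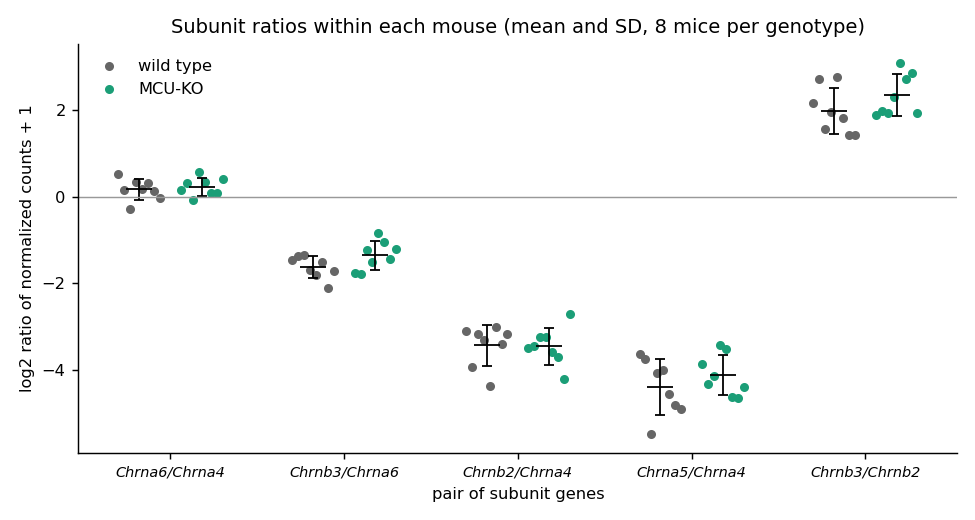
Log2 ratio of normalized counts plus 1 (vertical axis) for 5 pairs of subunit genes (horizontal axis) in each wild-type mouse (gray) and MCU-KO mouse (green), with the mean and SD over 8 mice. The genotypes overlap in all 5 pairs, and in Chrnb3/Chrna6 4 MCU-KO mice lie above the highest wild-type mouse at -1.34.

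Whether subunits of one receptor rose and fell together from mouse to mouse was examined in 28 relations, with the mean of each genotype removed and n = 16. None passed the adjustment. The strongest was that of Chrna6 with the mean of the 13 dopaminergic markers (Pearson r = 0.63, permutation p = 0.00594, adjusted p = 0.166, Spearman rho = 0.53, permutation p = 0.0352, adjusted p = 0.951). It was 0.58 without the 2 mice farthest from the median of Chrna6, 0.55 within wild type and 0.78 within MCU-KO. Chrna5 with Chrna6 gave r = 0.56 (permutation p = 0.0357, adjusted p = 0.499, rho = 0.41), which fell to 0.22 without the 2 mice farthest from the median and so rested on them. The neighbours Chrna6 and Chrnb3 gave r = 0.30 (permutation p = 0.300, adjusted p = 0.95, rho = 0.14), with 0.64 in wild type and -0.33 in MCU-KO, and 0.12 without the 2 farthest mice. Chrna4 and Chrnb2, which form one receptor, gave r = 0.20 (permutation p = 0.429, adjusted p = 0.95, rho = 0.30), with 0.40 in wild type and 0.10 in MCU-KO.

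**Figure D5:**
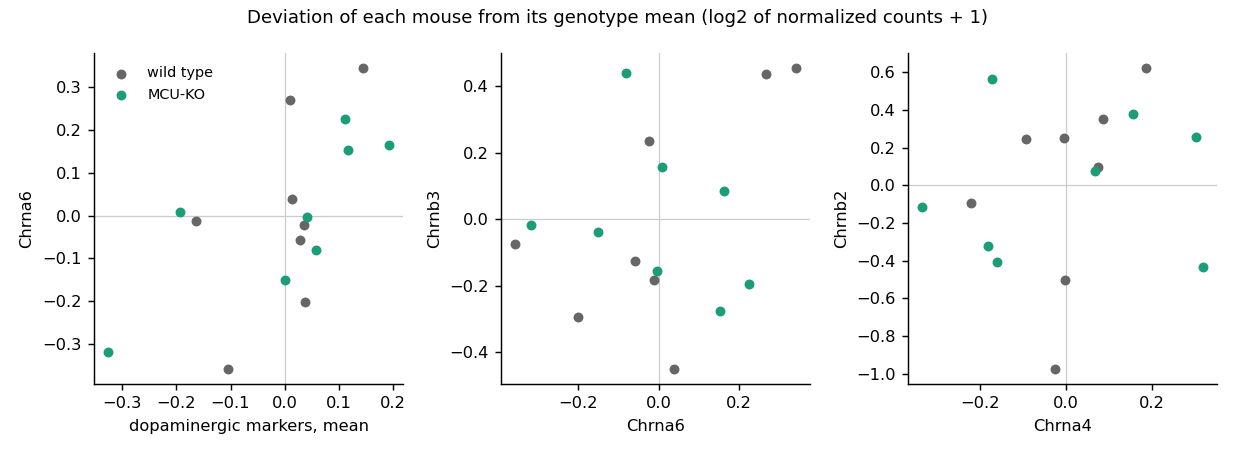
Deviation of each mouse from the mean of its genotype in log2 normalized counts plus 1, wild type in gray and MCU-KO in green. The left panel sets Chrna6 against the mean of the dopaminergic markers (r = 0.63), the middle panel Chrnb3 against Chrna6 (r = 0.30) and the right panel Chrnb2 against Chrna4 (r = 0.20), over 16 mice each.

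The genes whose pattern over the 16 mice was most like that of Chrna6 were Kcns3 (r = 0.81), Ndnf (r = 0.81) and Lsm12 (r = 0.80), and for Chrnb3 they were Ggps1 (r = 0.86), Ssbp1 (r = 0.82) and Prtn3 (r = 0.81). These are the highest of 12389 correlations for each subunit, in which all genes share the same libraries, and are given as a description. Among the same genes Chrnb3 took place 1524 in likeness to Chrna6, and Chrna6 took place 2112 in likeness to Chrnb3.

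The other genes of cholinergic signalling were examined in 4 lists of 38 genes, of which 24 passed the filter. None was called by edgeR or DESeq2, which called 0.178% and 0.557% of all genes they tested. Of the 24, 1 had an unadjusted p under 0.05 by edgeR, a level that 4.41% of all genes tested reached. In MCU-KO 11 were fitted higher and 13 lower. Of the 8 further nicotinic subunits, Chrna2, Chrna9, Chrna10, Chrnd, Chrne and Chrng were at 0 in every mouse. The muscle subunits Chrna1 and Chrnb1 averaged 53.6 ± 56.4 and 6.06 ± 17.2 normalized counts in wild type (SD, n = 8), and only Chrna1 passed the filter.

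Of 18 genes for assembly and accessory proteins 16 were tested, 8 fitted higher and 8 lower. The highest per kb in wild type were Vsnl1, the calcium sensor VILIP-1 (5376 per kb), Ywhah, the 14-3-3 protein eta (5079 per kb), and Emc6, a subunit of the membrane insertion complex of the endoplasmic reticulum (2864 per kb). Their log2 fold changes were 0.09 (SE 0.09), -0.05 (SE 0.08) and -0.02 (SE 0.14). Lypd6b, one of the small Ly6 proteins that modulate nicotinic receptors, gave the smallest p of these genes. It ranged from 37.8 to 319 normalized counts in wild type and from 197 to 640 in MCU-KO, with means of 165 ± 90.6 and 411 ± 169 (SD, n = 8). Its log2 fold change was 1.32 (SE 0.44, interval 0.41 to 2.22) with an unadjusted p = 0.00636, which did not pass over all genes (adjusted p = 0.77, edgeR).

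Ache, the gene of acetylcholinesterase, which breaks down acetylcholine, averaged 9232 ± 1821 normalized counts in wild type and 8172 ± 1533 in MCU-KO (log2 fold change -0.18, SE 0.13, adjusted p = 1.00, edgeR). Prima1, its membrane anchor, averaged 232 ± 63.5 and 196 ± 47.4. Chat, which makes acetylcholine, was at 0 in 5 wild-type and 2 MCU-KO mice and averaged 68.5 ± 102 and 120 ± 110. Among the muscarinic receptors, which act through G proteins, Chrm5 had the highest level at 179 per kb in wild type, and it averaged 287 ± 143 and 210 ± 144 normalized counts. Chrm3 averaged 83.8 ± 56.1 and 57.1 ± 65.1, and Chrm2 averaged 44.9 ± 46.5 and 108 ± 114. None of the 7 genes tested in the lists of muscarinic receptors and acetylcholine handling passed the test.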

How the data were processed

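The authors trimmed adapters with cutadapt according to the study's methods (the submitters' processing notes name Trim Galore), and used STAR for alignment to mm10 and HTSeq for counting. They deposited whole-number counts per gene and mouse without normalization. Tool versions and strandedness are not given in the sources used here. Reads carried no molecular identifiers, so floors cover counting error only. Gene names, lengths and sequences came from GENCODE M21 on GRCm38, and 24991 of 25006 identifiers had a symbol. Genes were filtered by filterByExpr and tested over all 16 libraries with edgeR 4.0.16 (TMM, quasi-likelihood, no covariate, Benjamini-Hochberg over 12390 genes, threshold 0.05) in R 4.3.3. DESeq2 1.42.0 and limma 3.58.1 were alternatives. Values shown are counts divided by DESeq2 size factors. Ratios and order used log2 of these plus 1. Relations used 100000 permutations. The fits and exact tests were tested on simulated data. The subunits, lists and tests were chosen with earlier results of these data known. Named pathway genes were the 3 highest per kb in wild type and the smallest p of each list, with the 3 genes most like Chrna6 and Chrnb3, and Th, Slc6a3 and Mcu as checks. No 2 libraries of the same genotype agreed within sampling noise, and pairs across genotypes were not compared.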

Additional observations from a re-analysis of the deposited data

Results flagged for a closer look

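In MCU-KO mouse 5, Chrna7 stood at 433 normalized counts, far above the other 7 MCU-KO mice by Dixon's ratio. Of 24 groups examined, 1.2 would be flagged at a rate of 1 in 20, and this was the only 1.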

How the results depend on the processing

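No subunit gene was called in any of 23 alternative fits, 16 of them without 1 mouse each, and Chrna4, Chrna5, Chrnb2 and Chrnb3 kept the sign of their log2 fold change in all of them, though not its size: without single mice Chrna4 ran from -0.13 to -0.04, Chrna5 from 0.04 to 0.25, Chrnb2 from -0.25 to -0.05 and Chrnb3 from 0.16 to 0.30. Chrna3 changed sign with limma-voom (0.01) and with the mouse number as a replicate block (0.02), and ran from -0.09 to 0.12 without single mice. Chrna6 ran from -0.09 to 0.02. Chrna7 was -0.67 with limma-voom and -1.56 with the replicate block, and ran from -1.58 to 0.42 without single mice. It was not tested when 10 counts were required in every mouse. The ratio Chrnb2 to Chrna4 ran from -0.16 to 0.09, Chrna6 to Chrna4 from 0.00 to 0.11, Chrna5 to Chrna4 from 0.13 to 0.39 and Chrnb3 to Chrnb2 from 0.25 to 0.47 without single mice. Chrnb3 to Chrna6 ran from 0.20 to 0.34, and its exact p ran from 0.0371 to 0.167 and the adjusted p from 0.186 to 0.817. Same-numbered mice of the genotypes did not deviate together (r from -0.06 to 0.03 in 8 pairs). The labels do not say what the numbers stand for, and these correlations cannot show whether the mice were paired. The replicate block gave 14 called genes in all instead of 22. DESeq2 called 90. Chrna7 was limited by its spread between mice, and Chrnb4, counted in 4 of 16 mice, did not pass the filter on low counts of the main edgeR fit.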
